A study of Mus musculus with 6 samples.

Results

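The Reg (regenerating) genes encode small secreted proteins with a C-type lectin fold. The 5 genes described here, Reg1, Reg3a, Reg3b, Reg3g and Reg4, were chosen by their symbols from the 32285 genes of the annotation, and all 5 were detected in each of the 6 single-cell RNA-seq libraries. In the intestine, Reg3b and Reg3g are known as antibacterial lectins that enterocytes and Paneth cells release into the lumen and that rise with microbial contact, MyD88 signalling and interleukin 22. Reg3a is a near relative of both, Reg1 was first described in the exocrine pancreas, and Reg4 is known from secretory and enteroendocrine cells.

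The libraries came from mouse duodenal organoids, which are 3-dimensional epithelial cultures grown from crypts of 10-week-old mice, collected at day 3. Wild-type (WT) organoids received the vehicle DMSO (WT -EIPA, 2 libraries) or 5 µM EIPA, an amiloride derivative used as an ion transport inhibitor (WT +EIPA, 2 libraries). A second line carried a lentiviral, doxycycline-inducible CRISPR-Cas9 construct with a guide to the first exon of its target gene, and was kept without (CRISPR -Dox) or with 2 µg/mL doxycycline (CRISPR +Dox), with 1 library each. This line was grown from single clones, both of its libraries carry the construct, and the +Dox cells were sorted as live GFP+ cells, so clone, Dox and sort cannot be told apart. The study asked whether loss of the rise in intracellular pH along the crypt alters the fate of stem cell progeny.

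A 3' single-cell library counts unique molecular identifiers (UMIs), one for each captured transcript end, so a level needs no correction for gene length. After cells with fewer than 1000 genes or 20% or more mitochondrial UMIs were left out, 87954 cells remained, with 161670015 to 239368573 UMIs a library and a median of 11477.5 to 17020 UMIs a cell. Levels are given as CPM, a gene's share of all UMIs in a class of cells from 1 library, scaled to 1000000. Cells were clustered without the Reg genes among the variable genes, and 23 clusters were named from fixed markers as enterocyte-like, Paneth-like, goblet-like, enteroendocrine-like (EEC-like), tuft-like, stem cell-like (ISC-like), proliferating-like or regenerative-like (Clu, Ly6a, Anxa1). Because the same cells formed the clusters, differences of level between classes are described and not tested. The enteroendocrine markers summed to 38571 to 44953 CPM in the EEC-like cells of the 4 WT libraries but to 4200 and 5048 CPM in those of CRISPR -Dox and +Dox. Of the listed fibroblast, immune and endothelial genes, Vim was at 6.33 to 12.6 CPM in WT and at 0.0645 and 0.283 CPM in CRISPR -Dox and +Dox, and the others, such as Col1a1, Ptprc and Cdh5, were at 0 to 0.494 CPM. Vim was also among the leading genes of cluster 18, which is EEC-like.

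Reg1, Reg3a, Reg3b and Reg3g lie side by side on mouse chromosome 6, and Reg4 lies alone on chromosome 3. In GRCm38, the build of the deposited counts, the gene bodies are chr6:78422711-78428667 for Reg1 (plus strand, ENSMUSG00000059654), chr6:78380709-78383827 for Reg3a (plus, ENSMUSG00000079516), chr6:78370657-78373466 for Reg3b (plus, ENSMUSG00000071356), chr6:78466269-78468872 for Reg3g (minus, ENSMUSG00000030017) and chr3:98222156-98236748 for Reg4 (plus, ENSMUSG00000027876). With Reg2 and Reg3d, the chromosome 6 genes fill 98216 bases (chr6:78370657-78468872) that hold no protein-coding gene other than these 6. The coding sequences of Reg3b and Reg3g were identical at 76.4% of aligned positions, those of Reg3a and Reg3b at 75.2% and those of Reg3a and Reg3g at 73.3%, while Reg4 shared 59.8% to 63.5% with the others. The longest exact stretch common to any pair of members was 35 bases, in the coding part of Reg3b and Reg3g: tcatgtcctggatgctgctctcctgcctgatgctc. The study's transcript reads were longer than this stretch, so a full-length read could not lie inside it. Whether any read was counted for the wrong gene was not tested.

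The bases just upstream of the RefSeq start sites are shown for the 5 members because the 4 chromosome 6 genes varied together across the cell clusters and Reg4 did not. Each runs 5' to 3' on the strand of its gene, from position -170 to -21 (to -24 in Reg1), and capitals mark a TATA box (TATAAA), an E-box (CACCTG) or a STAT motif (TTCNNNGAA), searched on both strands. The windows of Reg1 and Reg3b lie inside the GENCODE gene bodies given above, and their last bases overlap an exon of another annotated transcript of the gene.
Reg1, chr6:78425813-78425959, plus strand: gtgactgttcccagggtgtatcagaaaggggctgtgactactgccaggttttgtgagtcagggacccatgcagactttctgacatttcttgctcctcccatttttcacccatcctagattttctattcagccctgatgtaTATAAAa
Reg3a, chr6:78380539-78380688, plus strand: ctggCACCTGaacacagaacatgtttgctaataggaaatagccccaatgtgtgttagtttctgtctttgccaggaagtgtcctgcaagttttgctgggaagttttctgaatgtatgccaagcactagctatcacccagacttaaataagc
Reg3b, chr6:78370715-78370864, plus strand: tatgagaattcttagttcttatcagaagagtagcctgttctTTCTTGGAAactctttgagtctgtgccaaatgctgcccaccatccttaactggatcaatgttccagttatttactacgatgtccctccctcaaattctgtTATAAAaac
Reg3g, chr6:78468895-78469044, minus strand: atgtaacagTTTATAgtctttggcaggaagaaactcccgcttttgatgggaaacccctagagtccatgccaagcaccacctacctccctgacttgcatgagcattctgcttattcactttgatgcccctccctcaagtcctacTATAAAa
Reg4, chr3:98221986-98222135, plus strand: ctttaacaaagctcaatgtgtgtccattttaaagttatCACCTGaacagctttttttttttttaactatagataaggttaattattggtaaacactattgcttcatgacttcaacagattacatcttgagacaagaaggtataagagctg

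Within the 250 bases before the start, TATAAA began at position -30 in Reg1, -29 in Reg3b and -27 in Reg3g, and Reg3g had a further match on the reverse strand at -161. CACCTG began at -166 in Reg3a, -214 in Reg3b and -132 in Reg4, and the STAT motif was matched in Reg3b alone among the members, as TTCTTGGAA at -129. Of 32851 RefSeq promoters of 27025 genes, 12.4% held TATAAA in the same window, 17.2% held CACCTG and 7.02% held TTCNNNGAA. A match is a description of the letters and not of a bound factor. The windows of Reg3a and Reg3g were the most alike, at 71.9% of aligned positions, followed by Reg3b and Reg3g at 70.0% and Reg3a and Reg3b at 69.9%.

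Reg3a was the most abundant member in enterocyte-like cells. In WT -EIPA its level there was 714 CPM in replicate 1 and 450 CPM in replicate 2, in WT +EIPA it was 965 CPM in both, and in the CRISPR line it was 367 CPM without and 926 CPM with Dox. The mean over the 6 libraries was 731 ± 268 CPM (SD) in enterocyte-like and 184 CPM in regenerative-like cells, the next class, and these ranges did not overlap. Between 31.8% and 62.4% of enterocyte-like cells held a Reg3a UMI when each cell was thinned to 2000 UMIs, against 0.642% to 3.49% of ISC-like cells. Without thinning the shares were 54.9% to 88.9% and 4.90% to 25.5%, at median depths of 10470 to 16737 and 9731 to 16052 UMIs, and thinning left out 4 to 76 shallower enterocyte-like cells and no ISC-like cell a library. Within the enterocyte-like class the clusters differed. Cluster 3, led by apolipoprotein and brush-border genes of mature enterocytes (Apoa1, Apoa4, Sis), held 759 to 1848 CPM, cluster 5, with more detoxification genes (Gstm3, Adh1), held 134 to 449 CPM, the low-depth cluster 7 held 101 to 808 CPM and the small cluster 21 held 192 to 1715 CPM. Outside the class, the unnamed cluster 2 (Krt19, Selenbp1) held 17.3 to 53.5 CPM.

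Reg3g had the flattest profile of the 4 chromosome 6 members. Its enterocyte-like level was 225 and 337 CPM in WT -EIPA, 265 and 311 CPM in WT +EIPA, 129 CPM in CRISPR -Dox and 165 CPM in CRISPR +Dox. The -EIPA values lay on either side of both +EIPA values. In ISC-like cells it was still 21.04 to 30.3 CPM, and in every library both Reg3a (4.67 to 20.5 CPM) and Reg1 (0.967 to 5.57 CPM) were lower there. Cluster 3 held 178 to 388 CPM of Reg3g and cluster 5 held 112 to 364 CPM.

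The balance of Reg3a and Reg3g differed between clusters. In cluster 3, Reg3a exceeded Reg3g 2.71- to 7.07-fold in the 6 libraries. Its ratio to Reg3g was 0.406 to 2.78 in cluster 5, 1.18 to 4.49 in cluster 7 and 0.418 to 9.78 in cluster 21, the other enterocyte-like clusters. It was 0.118 to 0.543 in the unnamed cluster 2 and 0.112 to 0.918 in proliferating-like cells, so Reg3g was the higher of the pair in every library in cluster 2 and in proliferating-like cells.

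Across 115 sums of at least 50 cells, each 1 cluster in 1 library, the log2 level of Reg3a followed the log2 sum of enterocyte markers with r = 0.958 and a slope of 1.12. The slope was 0.95 for Reg3b (r = 0.841), 0.81 for Reg1 (r = 0.705) and 0.55 for Reg3g (r = 0.822), and Reg4 showed no such relation (r = -0.05). These pooled slopes mix lines whose levels differ. Within single libraries the slope was 1.01 to 1.23 for Reg3a, 0.86 to 1.11 for Reg3b and 0.53 to 0.69 for Reg3g, and for Reg1 it was 1.04 to 1.21 in WT, 0.63 in CRISPR -Dox and 0.91 in CRISPR +Dox. Reg3g had the lowest slope of the 4 in every library, while the order of Reg1, Reg3a and Reg3b varied. The points share libraries and depth and are not independent, so these values are descriptions. Within single libraries the correlation of Reg1 was 0.92 to 0.95 in WT but 0.733 in CRISPR -Dox and 0.839 in CRISPR +Dox.

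**Figure D1:**
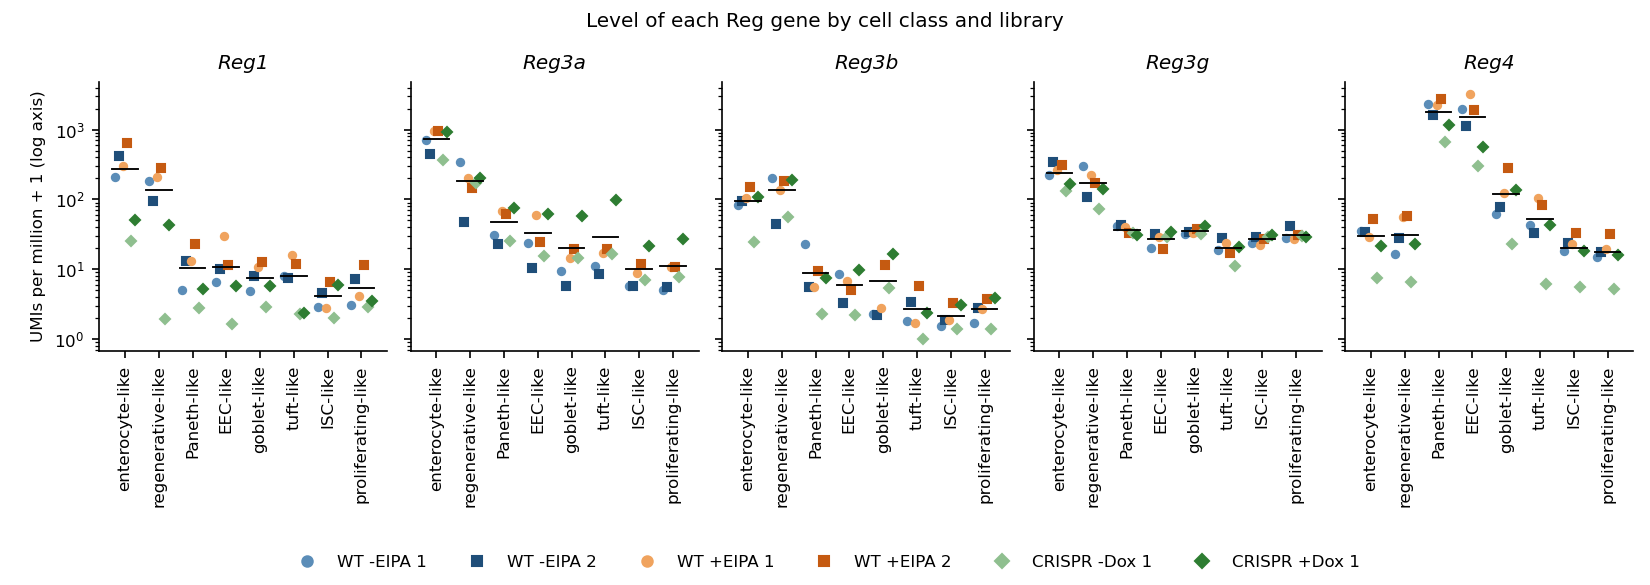
Level of each Reg gene (CPM, log axis) in 8 cell classes, with 1 point a library coloured by group. By their means (lines), Reg1, Reg3a, Reg3b and Reg3g are highest in enterocyte-like and regenerative-like cells and Reg4 in Paneth-like and EEC-like cells, but in CRISPR -Dox the regenerative-like cells hold 1 Reg1 UMI (0.927 CPM).

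**Figure D2:**
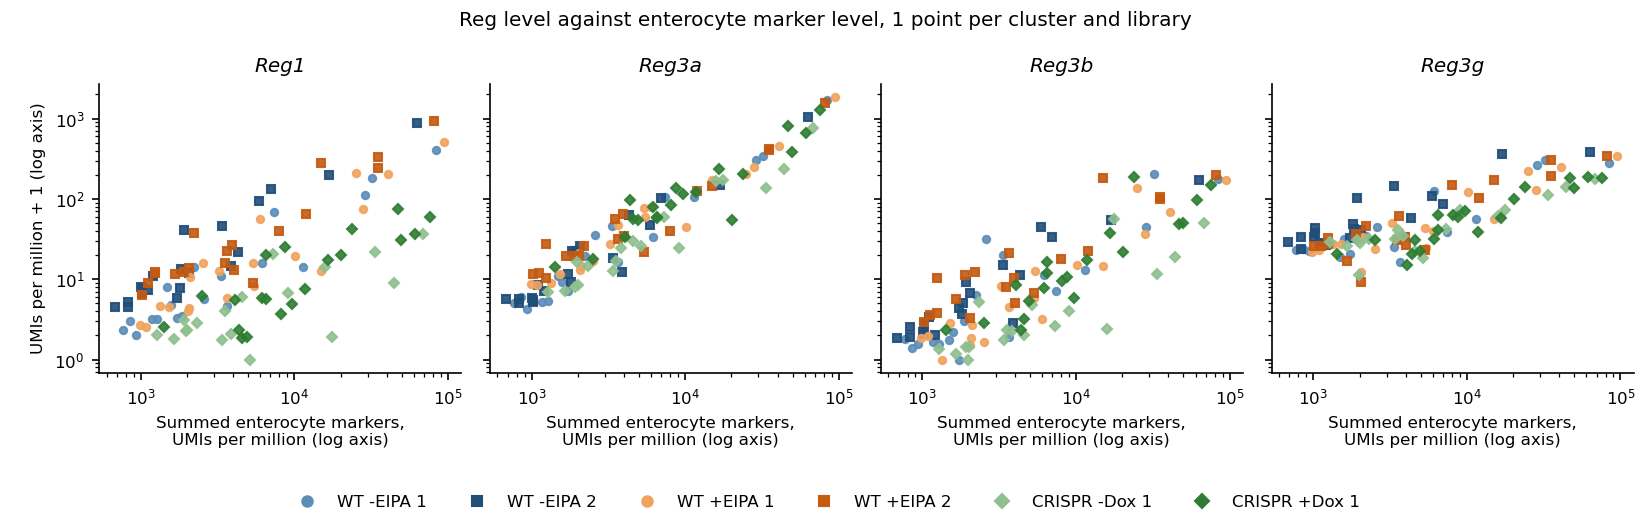
Level of Reg1, Reg3a, Reg3b and Reg3g (CPM, log axis) against the summed level of enterocyte markers (CPM, log axis) in 115 sums of 1 cluster in 1 library. Over all 6 libraries the slope is 1.12 for Reg3a and 0.55 for Reg3g, and Reg3g has the lowest slope of the 4 genes within each library.

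Levels were also set against the enterocyte markers counted in the same cells. For each 1000 UMIs of enterocyte markers, Reg3a had 8.37 to 16.7 UMIs in enterocyte-like cells and 6.17 to 15.98 in Paneth-like cells. Its level in Paneth-like cells therefore stood in a proportion to enterocyte markers that was close to, and in each library below, that of enterocyte-like cells, and its source there was not tested. Reg3g had 2.55 to 10.7 UMIs per 1000 in enterocyte-like cells but 11.4 to 39.7 in ISC-like and 10.5 to 40.8 in proliferating-like cells, above the enterocyte-like value in every library. The source of Reg3g UMIs in these classes was not tested.

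Reg1 and Reg3b were concentrated in few cells. Reg1 measured 205 and 420 CPM in the enterocyte-like cells of WT -EIPA, 304 and 639 CPM in those of WT +EIPA, 24.6 CPM in CRISPR -Dox and 49.9 CPM in CRISPR +Dox, so every WT value exceeded both values of the CRISPR line. Reg3b measured 82.4 and 92.2 CPM in WT -EIPA, 103 and 148 CPM in WT +EIPA, 23.3 CPM in CRISPR -Dox and 107 CPM in CRISPR +Dox. After thinning to 2000 UMIs, 2.61% to 18.1% of enterocyte-like cells held a Reg1 UMI and 1.91% to 12.7% a Reg3b UMI, against at most 1.02% and 0.582% of ISC-like cells. Without thinning the mean over the libraries was 20.7% for both genes in enterocyte-like cells.

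The 1% of enterocyte-like cells richest in Reg1 (18 to 34 cells a library) held 35.2% to 75.6% of its UMIs, and the richest 1% for Reg3b held 30.8% to 65.6%. For Reg3g the share was 13.2% to 19.3% and for Reg3a 4.80% to 11.1%. For Reg4, which is low in this class, it was 24.6% to 37.8%. Of these Reg4-rich cells, 26.1% to 65.4% were among the 10% of highest doublet score. Single enterocyte-like cells reached 567 Reg1 UMIs and 468 Reg3b UMIs, both in cells among the 10% of highest doublet score, and the richest cells of the other libraries reached 187 to 466 and 82 to 338 UMIs and were not among these. Most of the richest cells were different ones for each gene, but some were shared. At most 4 cells a library (0% to 17.4%) stood in the richest 1% of both Reg1 and Reg3b. For Reg3b and Reg3g it was 3 to 6 cells (14.7% to 19.2%). Unrelated sets of 1% would share about 1% of their cells. What lies behind the overlap was not tested. Between 11.1% and 23.1% of the Reg1-rich cells were among the 10% of cells with the highest doublet scores, against 9.72% to 13.6% of all enterocyte-like cells. Most Reg1-rich cells lay in cluster 3 (16 to 20 a library).

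**Figure D3:**
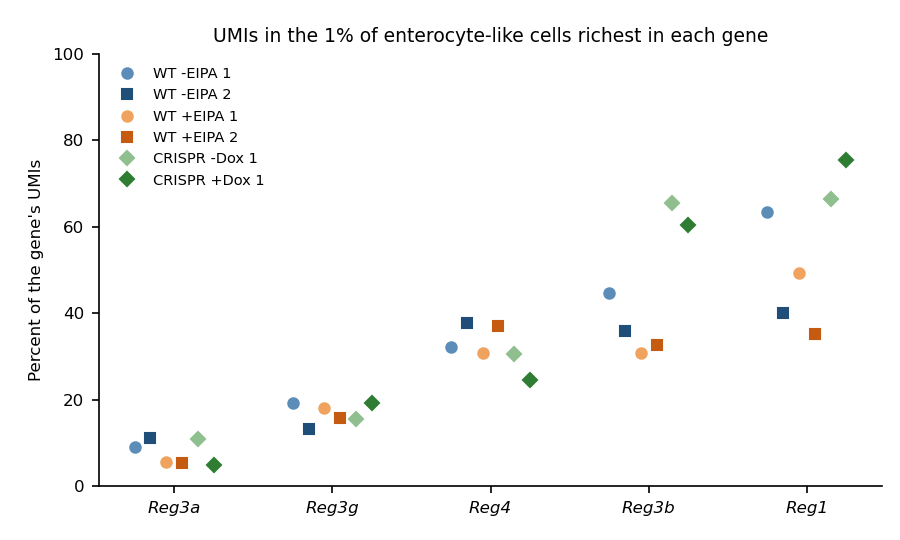
Percent of the UMIs of each Reg gene held by the 1% of enterocyte-like cells richest in it, with 1 point a library. Reg1 (35.2% to 75.6%) and Reg3b (30.8% to 65.6%) lie above Reg3g (13.2% to 19.3%) and Reg3a (4.80% to 11.1%) in all 6 libraries. Reg4 (24.6% to 37.8%) overlaps Reg1 and Reg3b.

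Members were also compared cell by cell. In cluster 3, after thinning, 46.7% to 53.2% of Reg3b-positive cells in the 4 WT libraries also held Reg3g, against 24.2% to 32.8% of Reg3b-negative cells, and in the CRISPR line the shares were 40.0% against 22.4% without Dox and 31.2% against 19.0% with Dox. For Reg3a and Reg3g the libraries went both ways. Reg3g was held by more of the Reg3a-positive than Reg3a-negative cells in 4 libraries, but by fewer in WT -EIPA replicate 2 (35.4% against 36.5%) and CRISPR -Dox (22.7% against 23.5%). These shares were not tested, since cells of 1 library are not replicates.

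The small cluster 21 (23 to 77 cells a library) was led by the pancreatic protease gene Ctrb1 and by Reg1, with enterocyte genes such as Fabp1. Its Reg1 level was 1018 and 88.1 CPM in WT -EIPA, 283 and 1737 CPM in WT +EIPA, 8.00 CPM in CRISPR -Dox and 35.8 CPM in CRISPR +Dox. The replicates differed widely within both WT groups here.

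Regenerative-like cells carried Reg3a, Reg3b and Reg3g in every library. Reg3b was 203 and 43.9 CPM in WT -EIPA, 135 and 183 CPM in WT +EIPA, 55.6 CPM in CRISPR -Dox and 188 CPM in CRISPR +Dox, and it was above the enterocyte-like level in 5 of 6 libraries. In CRISPR -Dox 55 of its 60 UMIs came from 1 cell, and in CRISPR +Dox 780 of 1602. Without the UMIs of the richest cell of each library and class the levels there were 4.64 and 96.7 CPM, and Reg3b was above the enterocyte-like level in 3 of 6 libraries. Reg3g was below its enterocyte-like level in 5 of 6 libraries, with 303, 108, 224, 173, 71.4 and 139 CPM in the same order. Reg3a was at 45.9 to 341 CPM there. Reg1 was at 93.5 to 279 CPM in WT, but in CRISPR -Dox it gave 1 UMI, and in CRISPR +Dox 299 of its 351 UMIs came from 1 cell. The WT -EIPA replicates, with 108 and 147 such cells, differed widely in Reg3b and Reg3g, so the order of these classes does not stand clear of the spread.

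Reg4 had a different address. In Paneth-like cells, named after the lysozyme- and defensin-producing cells of the crypt base, it was 2337 and 1633 CPM in WT -EIPA, 2225 and 2725 CPM in WT +EIPA, 670 CPM in CRISPR -Dox and 1157 CPM in CRISPR +Dox. The larger Paneth-like cluster 4 (5285 cells, against 1818 in cluster 14) also had the goblet genes Tff3, Muc2 and Agr2 among its leading genes. After thinning, 48.0% to 79.5% of Paneth-like cells held a Reg4 UMI, against 1.07% to 5.38% of ISC-like cells, and without thinning 72.3% to 95.6% against 5.21% to 32.4%. In EEC-like cells the level was 1984 and 1113, then 3228 and 1923, then 295 and 568 CPM in that order, yet only 5.97% to 23.2% of these cells held a UMI after thinning and 10.3% to 44.0% without it.

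The EEC-like level came from 1 cluster. Cluster 18, marked as enterochromaffin by Tph1, Tac1 and Chga, held 5520 and 2965 CPM in WT -EIPA, 8181 and 6408 CPM in WT +EIPA, 1775 CPM in CRISPR -Dox and 3086 CPM in CRISPR +Dox, the highest level of any member in any cluster of these libraries. The progenitor cluster 13 (Neurog3) held 10.0 to 76.0 CPM, and the hormone cluster 20 (Gip, Cck, Gcg) held 31.1 to 407 CPM. Reg4 levels in Paneth-like and EEC-like cells overlapped, and both stood above goblet-like cells, the next class, without overlap. Per 1000 UMIs of Paneth markers, Reg4 had 6.62 to 18.8 UMIs in Paneth-like cells and 90.9 to 1287 in EEC-like cells, while goblet-like cells, with 5.48 to 23.2, were near the Paneth proportion.

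Of the other Reg genes, Reg2 gave 3 to 15 UMIs in a whole library, too few to compare. Reg3d gave 19 to 114 UMIs, of which enterocyte-like cells held 12 to 90 (0.483 to 1.55 CPM). In ISC-like cells Reg3d had 0 UMIs in 4 libraries, which allows levels of up to 0.0605 to 0.181 CPM, and 0.182 and 0.0463 CPM in WT -EIPA replicate 1 and WT +EIPA replicate 1, so its level was lower there than in enterocyte-like cells in each library.

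The genes whose level followed each member most closely over the 115 cluster sums differed between members. For Reg3a they were Leap2, an antimicrobial peptide and ghrelin receptor antagonist (r = 0.971), Spink1, Apoc3, Cyp3a11 and Mme. Reg3b stood nearest to the brush-border protease gene Mep1b (r = 0.898), Gsta1, Ms4a18, Dhrs1 and Nat8f5, and Reg3g to Ckmt1 (r = 0.916), the amino acid transporter genes Slc7a9 and Slc7a7, Cyb5b and Prap1. Reg1 was closest to Gm3776 (r = 0.860), Rbp2, Gsta2, Mt4 and Cyp4f16. Reg4 went with Mmp7, the protease that processes Paneth cell defensins (r = 0.831), Ramp1, Tmed3, Asph and Defa26, none of which was among its 5 nearest over 54 sums per class. Between members, r was 0.864 for Reg3a and Reg3b, 0.856 for Reg3b and Reg3g and 0.825 for Reg1 and Reg3g, and Reg4 lay between -0.20 and 0.06 with the others.

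The first comparison asked whether EIPA changed the Reg genes in WT organoids. Over all cells, Reg3a was 116 and 55.05 CPM without and 206 and 196 CPM with EIPA, Reg3b was 16.8 and 13.1 against 27.0 and 41.9 CPM, and Reg4 was 187 and 195 against 327 and 413 CPM. Reg1 was 35.4 and 55.6 CPM without and 70.4 and 141 CPM with EIPA, and Reg3g was 69.1 and 81.6 against 88.6 and 97.4 CPM. The share of all genes with both +EIPA libraries above both -EIPA libraries was not counted, so the order of the libraries is not read as a result about the members. From these sums alone, more cells of a type and more RNA per cell cannot be told apart.

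Counts summed per library were compared with the quasi-likelihood test of edgeR, with Benjamini-Hochberg adjustment over all genes tested. Without the experiment number as a block, 0 of 5 members passed an adjusted p of 0.05 over all cells, where 0% of 15890 genes passed, although all 5 had an unadjusted p under 0.05, as did 10.1% of genes, and DESeq2 called Reg3b and Reg4 beside 3.94% of genes. The log2 fold changes were 1.04 ± 0.15 (SE) for Reg4 (edgeR adjusted p = 0.239), 1.30 ± 0.26 for Reg3b (0.272), 1.32 ± 0.36 for Reg3a (0.353), 1.31 ± 0.42 for Reg1 (0.427) and 0.39 ± 0.13 for Reg3g (0.433). With the experiment as a block, which pairs libraries of the same replicate number, 4 members rose, with an edgeR adjusted p of 0.0192 for Reg1, 0.0197 for Reg4, 0.0281 for Reg3g and 0.0480 for Reg3a, where 4.47% of all genes rose. Reg3b missed with an adjusted p of 0.0578.

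The clusters allow both parts to be computed. If only the share of each cluster had changed and the level within clusters had stayed, Reg3a over all cells would have risen 1.48-fold in experiment 1 and 2.00-fold in experiment 2, out of 1.78-fold and 3.55-fold measured. If only the levels within clusters had changed, it would have risen 1.27-fold and 1.97-fold. For Reg4 the makeup alone gave 1.53-fold and 1.21-fold and the levels alone 1.13-fold and 1.86-fold, so the experiments differed in which part was the larger. For Reg3g the levels alone gave 1.06-fold and 0.946-fold. This split takes each cluster as 1 kind of cell in both groups, but ISC-like cells lay mostly in cluster 8 without EIPA (721 and 1780 cells, with 200 and 76 in cluster 6) and in cluster 6 with it (1747 and 2656 cells, with 141 and 59 in cluster 8). A change of makeup and a change within 1 kind of cell can therefore not be fully told apart.

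Within enterocyte-like cells no member passed without the block, where 0.0722% of 12459 genes did. Reg3a had a log2 fold change of 0.89 ± 0.24 (edgeR adjusted p = 0.148), Reg3b of 0.69 ± 0.20 (0.168) and Reg1 of 0.77 ± 0.43 (0.383), and Reg3g and Reg4 had 0.21 and 0.41. Of the 5, 2 had an unadjusted p under 0.05, as did 18.3% of genes, and DESeq2 called Reg3a and Reg3b beside 4.42% of genes. With the block, Reg3a (adjusted p = 0.00103), Reg1 (0.00115) and Reg3b (0.00346) rose, where 9.07% of genes rose. The summed enterocyte markers of the same cells were 1.39-fold and 1.83-fold higher with EIPA in experiments 1 and 2, beside 1.35-fold and 2.15-fold for Reg3a, and their part in the result was not tested. In the mature cluster 3 no member passed without the block (0% of 10794 genes) or with it (6.12%). Reg3a in this cluster had a log2 fold change of 0.43 ± 0.26 (edgeR adjusted p = 0.559, and 0.0606 with the block). Among the enterocyte-like clusters, members passed without the block in the low-depth cluster 7 alone. Reg3a (1.90 ± 0.27), Reg3b (1.91 ± 0.50) and Reg3g (1.38 ± 0.27) rose there, and 14.1% of its 10519 genes passed in 1 direction or the other. With the block, Reg1, Reg3a, Reg3b and Reg4 rose in cluster 5, where 4.64% of 11482 genes passed in either direction. In the small cluster 21, Reg1 and Reg3a rose with the block and Reg3g and Reg4 fell. There 11.8% of 4939 genes passed in either direction. Without cluster 7, the enterocyte-like log2 fold change of Reg3a was 0.71 ± 0.27 (edgeR adjusted p = 0.487).

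In Paneth-like cells Reg3a rose with EIPA, but most of its UMIs there lay in cells of high doublet score. It measured 29.6 and 22.2 CPM without and 67.2 and 60.6 CPM with EIPA, and both +EIPA values lay above both -EIPA values. Few cells held much of this, since the richest 1% of Paneth-like cells carried 44.0% to 57.3% of the Reg3a UMIs in the 4 WT libraries, and the richest cell was among those of highest doublet score in 3 of 4. Without all cells of highest doublet score, the UMIs fell from 239 and 405 to 58 and 117 without EIPA. With EIPA they fell from 823 and 1584 to 146 and 452. The levels were then 11.1 and 10.8 CPM without and 19.8 and 27.6 CPM with EIPA. With all cells kept, the log2 fold change was 1.41 ± 0.15 with an edgeR adjusted p of 0.0199 (2.79e-29 with the block), and Reg3a was the 1 member of 5 that passed, beside 0.217% of 11977 genes. The same change was called in each of the Paneth-like clusters, 4 (1.43 ± 0.20, adjusted p = 0.0404, 0.19% of genes) and 14 (1.33 ± 0.20, adjusted p = 0.0445, 0.24%). Enterocyte markers summed over the same cells moved from 2368 and 1905 CPM to 4854 and 3791 CPM, or 2.05-fold and 1.99-fold, beside 2.27-fold and 2.73-fold for Reg3a, and their part was not tested. The call was lost without WT -EIPA replicate 2 (1.21 ± 0.12, edgeR adjusted p = 0.276), with the cells of highest doublet score removed (1.25 ± 0.23, adjusted p = 0.247) and with classes set per cell by marker UMIs (0.99 ± 0.18, adjusted p = 0.146). With the block, Reg1 (log2 fold change 1.204, adjusted p = 3.48e-13) and Reg4 (0.43, adjusted p = 0.0212) rose as well, beside 2.24% of genes, although the experiments differed for Reg4, which was 2337 and 2225 CPM without and with EIPA in experiment 1 and 1633 and 2725 CPM in experiment 2. In replicate 1, 1 cell of high doublet score held 16 of the 32 Reg1 UMIs without EIPA, and another held 66 of the 147 with EIPA. Without all cells of high doublet score Reg1 was 2.23-fold (7 to 22 UMIs) and 1.54-fold higher (63 to 147 UMIs) in experiments 1 and 2.

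A single cell turned the sign of Reg3b in this class. Its levels were 21.8 and 4.61 CPM without and 4.49 and 8.49 CPM with EIPA, for a log2 fold change of -0.72. Of the 176 Reg3b UMIs in the Paneth-like cells of WT -EIPA replicate 1, 161 (91.5%) came from 1 cell of 22947 UMIs that was among those with the highest doublet scores. Without the cell richest in the gene in each library the log2 fold change was 0.80.

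In goblet-like cells, which secrete mucus, the EIPA change of Reg4 was larger than in enterocyte-like or Paneth-like cells. Reg4 was 60.0 and 76.6 CPM without and 123 and 285 CPM with EIPA, for a log2 fold change of 1.62 ± 0.35. No member passed without the block, where 0% of 11464 genes did, although 4 members had an unadjusted p under 0.05, as did 7.01% of genes, and DESeq2 called Reg3a beside 0.456% of genes. With the block, 4 rose beside 2.46% of genes: Reg4 (log2 fold change 1.55, edgeR adjusted p = 7.96e-07), Reg3a (1.43, 0.000522), Reg3b (2.49, 0.000689) and Reg1 (0.00904). Reg1 was 3.85 and 7.08 CPM without and 9.74 and 11.5 CPM with EIPA. One cell of high doublet score held 27 of its 62 UMIs in WT +EIPA replicate 1. Without all cells of high doublet score Reg1 was 1.04-fold (13 to 12 UMIs) and 1.55-fold (41 to 60 UMIs) in experiments 1 and 2. The value of Reg3b rested on WT +EIPA replicate 2. Its levels were 1.24 and 1.18 CPM without and 1.73 and 10.4 CPM with EIPA, 37 of the 118 UMIs of that library came from 1 cell, and the log2 fold change without that library was 0.54 (edgeR adjusted p = 1.00, no block). Paneth markers in the goblet-like cells went from 3489 to 5460 CPM in experiment 1 and from 5682 to 12315 CPM in experiment 2, 1.56-fold and 2.17-fold, beside 2.05-fold and 3.72-fold for Reg4, and their part was not tested.

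The difference between classes was tested directly, as the interaction of class and EIPA in edgeR. The log2 fold change of Reg4 was higher by 1.17 ± 0.14 in goblet-like than in enterocyte-like cells (adjusted p = 1.32e-05, where 7.14% of genes differed) and by 1.08 ± 0.18 than in Paneth-like cells (adjusted p = 0.000931, 0.583% of genes). In tuft-like cells, the chemosensory cells, it was higher by 0.96 ± 0.18 than in Paneth-like cells (adjusted p = 0.0110, 0.103% of genes), but not without the richest cell of each library (0.81, adjusted p = 0.591). Reg3b differed between goblet-like and enterocyte-like cells by 1.80 ± 0.43 and between goblet-like and Paneth-like cells by 3.14 ± 0.42, and both calls were lost without the richest cells (0.98, adjusted p = 0.159, and 1.01, adjusted p = 0.592).

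In EEC-like cells 0 of 5 members passed without the block, beside 0.0652% of 12269 genes, although 3 had an unadjusted p under 0.05, as did 2.54% of genes, and DESeq2 called none of them and 0.13% of genes. Reg4 had a log2 fold change of 0.78, Reg3a of 1.49 and Reg1 of 1.36. With the block these 3 rose, beside 1.17% of genes. The clusters of the class differed for Reg4 in this fit. Reg4 was not called in cluster 18, where 0.718% of genes passed in either direction. In the hormone cluster 20, where 1.12% did, Reg4 was called lower. Reg3a was 2.53-fold and 2.46-fold higher in experiments 1 and 2, but 1.56-fold and 1.98-fold without the cells of high doublet score. Its UMIs in WT +EIPA replicate 1 then fell from 402 to 57. The value of Reg1 rested on 1 cell, which held 144 of its 196 UMIs in WT +EIPA replicate 1, and fell to 0.21 without the richest cells. In tuft-like cells, where 4 members could be tested, Reg4 was 41.9 and 31.4 CPM without and 103 and 83.0 CPM with EIPA, a log2 fold change of 1.45 ± 0.21 (edgeR adjusted p = 0.0767). No member passed without the block (0% of 9706 genes), 3 had an unadjusted p under 0.05, as did 3.67% of genes, and DESeq2 called Reg4 beside 0.0384% of genes. With the block Reg4 rose (adjusted p = 8.81e-11, beside 0.546% of genes), while Paneth markers in these cells were 1.87-fold and 2.02-fold higher beside 2.45-fold and 2.64-fold for Reg4.

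**Figure D4:**
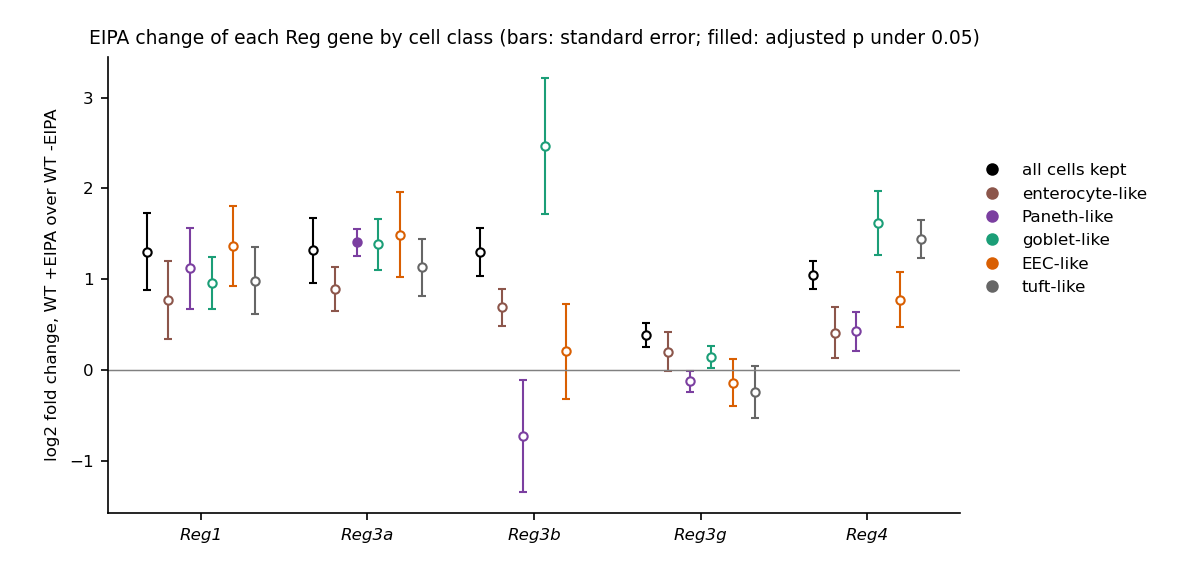
Log2 fold change of each Reg gene, WT +EIPA over WT -EIPA, in all cells and 5 classes, with its standard error from edgeR without the block (2 libraries a group). Filled points passed an adjusted p of 0.05, which only Reg3a in Paneth-like cells did.

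The second comparison set CRISPR +Dox beside CRISPR -Dox, with 1 library each and no replicate, so no test was made. The 95% intervals are exact and cover counting error only. In enterocyte-like cells Reg3b was 4.57-fold higher with Dox (4.26 to 4.91), Reg4 3.15-fold (2.75 to 3.62), Reg3a 2.52-fold (2.48 to 2.57) and Reg1 2.03-fold (1.88 to 2.18). Reg3g was 1.28-fold higher (1.24 to 1.33). Thus 4 of 5 members were at least 2-fold higher, beside 1.51% of the 7025 genes at a mean of 10 CPM or more. Reg1 lay near that limit and was 1.97-fold higher without the cells of highest doublet score, 1.90-fold with stricter cell limits and 1.77-fold at a finer clustering, so that 3 of 5 members passed there, beside 1.49%, 1.39% and 1.21% of genes. Enterocyte markers in these cells were 1.48-fold higher.

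Over all cells the Dox folds were 7.68 for Reg3b, 4.00 for Reg4, 3.88 for Reg3a, 2.94 for Reg1 and 1.42 for Reg3g, and 4 of 5 members were at least 2-fold higher beside 1.76% of genes. Changed shares of the clusters alone would have given 2.21-fold for Reg3b and 2.12-fold for Reg4, and changed levels within clusters 4.77-fold and 2.21-fold. Clusters 12 (ISC-like) and 17 (proliferating-like) held 2386 and 1573 cells of CRISPR +Dox but 24 and 1 of CRISPR -Dox, so the level without Dox rests on few cells there. The share of cells in each cluster may also follow the GFP gate.

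In Paneth-like cells Reg4 was 1.73-fold higher with Dox (1.69 to 1.77), Reg3a 3.07-fold (2.72 to 3.46) and Reg3g 0.913-fold (0.811 to 1.03). At lower levels, Reg3b was 5.13-fold higher (3.08 to 9.16), from 1.25 to 6.42 CPM, and Reg1 2.46-fold (1.55 to 4.07), from 1.72 to 4.24 CPM. Thus 3 of 5 members were at least 2-fold higher, beside 0.456% of the genes at 10 CPM or more, a level that Reg3b and Reg1 did not reach. One cell of high doublet score held 43 of the 124 Reg1 UMIs with Dox, and another held 8 of the 16 Reg3b UMIs without Dox. Without the cell richest in the gene in each library Reg1 was 1.96-fold and Reg3b 9.50-fold higher, which left 2 of 5 members at least 2-fold higher. Without all cells of high doublet score, Reg3b gave 1 UMI without and 78 with Dox and Reg3g was 0.657-fold. In goblet-like cells Reg4 was 6.101-fold higher (5.25 to 7.12), from 22.05 to 135 CPM, Reg3a 4.17-fold (3.42 to 5.11), Reg3b 3.58-fold (2.496 to 5.232), Reg1 2.55-fold (1.43 to 4.74) and Reg3g 1.31-fold (1.12 to 1.54), so that 4 of 5 members were at least 2-fold higher beside 1.25% of genes. Reg1 and Reg3b did not reach a mean of 10 CPM. One cell held 32 of the 39 Reg3b UMIs without Dox, and another, of high doublet score, held 93 of the 145 with Dox. Without these cells Reg3b was 7.15-fold higher, from 7 to 52 UMIs, but without all cells of high doublet score it was 0.655-fold, from 37 to 24 UMIs, so its direction changed with the cells kept. Reg1 was 1.26-fold and Reg3a 2.57-fold higher without the cells of high doublet score, and 2 of 5 members were at least 2-fold higher beside 0.987% of genes. Paneth markers in the same goblet-like cells were at 4021 and 15662 CPM, 3.89-fold apart, and their part in the Reg4 fold was not tested.

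In EEC-like cells Reg4 was 1.92-fold (1.79 to 2.06) and Reg3a 4.26-fold higher with Dox (3.15 to 5.88). Reg3b was 7.20-fold higher (2.69 to 27.2, from 4 to 68 UMIs), Reg1 7.62-fold (1.96 to 65.3, from 2 to 36 UMIs) and Reg3g 1.18-fold (0.925 to 1.51). Thus 3 of 5 members were at least 2-fold higher, beside 0.475% of the genes at a mean of 10 CPM or more, which Reg1 and Reg3b did not reach. One cell of high doublet score held 98 of the 256 Reg3g UMIs with Dox and another 21 of the 92 without, and without them Reg3g was 0.942-fold. Without all cells of high doublet score Reg3a was 2.11-fold, Reg4 1.08-fold and Reg3g 0.590-fold, Reg3b gave 3 and 11 UMIs (1.80 and 2.14 CPM), and 2 of 5 members were at least 2-fold higher beside 0.567% of genes. With classes set by marker UMIs, where Reg1 gave no UMI without Dox and so no fold, only Reg3g of the other 4 was, at 3.09-fold, beside 1.12% of genes. In tuft-like cells, with 81 and 55 cells, Reg4 was 8.32-fold higher (2.95 to 32.4, from 4 to 32 UMIs) and Reg3a 6.32-fold (3.41 to 12.8, from 12 to 73 UMIs), while Reg3g was 1.95-fold (0.776 to 5.31), and Reg1 and Reg3b gave at most 1 UMI a library. Thus 2 of 5 members were at least 2-fold higher, beside 3.66% of genes and Paneth markers that were 11.2-fold higher. Without the cell richest in Reg3a in each library its fold was 3.14.

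The EIPA and Dox values can be set side by side, since they share no library. Reg3a in Paneth-like cells was 2.27-fold and 2.73-fold higher with EIPA and 3.07-fold higher with Dox, and Reg4 in goblet-like cells was 2.05-fold, 3.72-fold and 6.101-fold higher. Reg3g in Paneth-like cells was 0.970-fold, 0.769-fold and 0.913-fold. In WT -EIPA replicate 1, 82 of its 321 UMIs came from the cell that also held most of the Reg3b UMIs, and without the richest cell of each library the folds were 1.196, 0.755 and 0.895, so the 2 EIPA experiments then went opposite ways. The CRISPR line started from lower levels in each case for Reg1, Reg3b and Reg4 (6.09, 4.98 and 46.8 CPM over all cells without Dox, against at least 35.4, 13.1 and 187 CPM in WT -EIPA), and line, clone and construct cannot be told apart here.

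**Figure D5:**
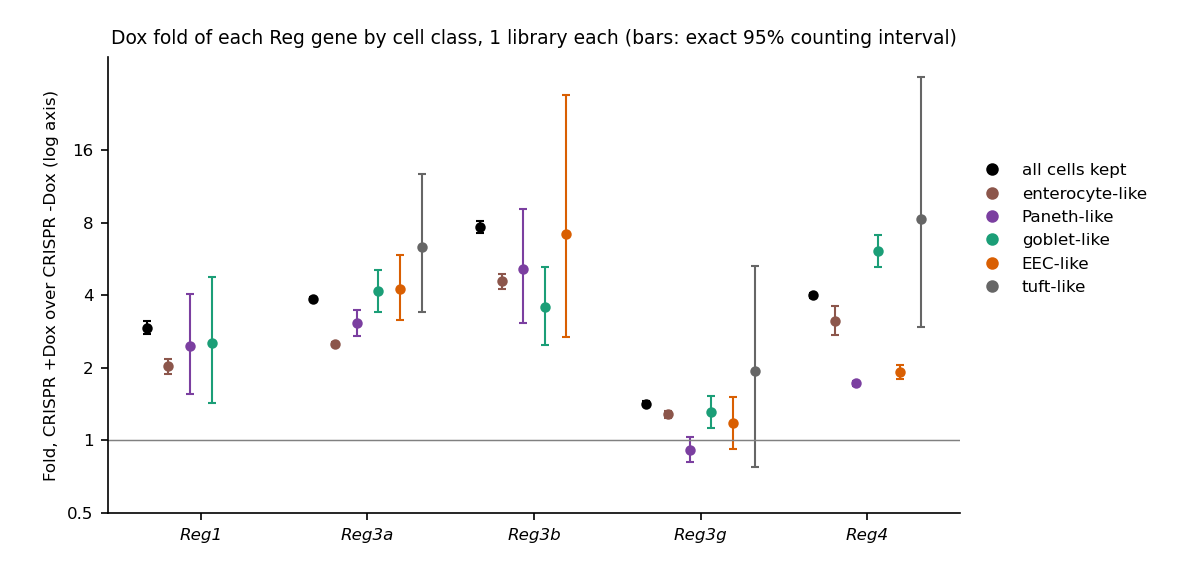
Fold of each Reg gene, CRISPR +Dox over CRISPR -Dox (log axis), in all cells and 5 classes, with exact 95% intervals for counting error. Reg3g lies near 1 in most classes, and the other 4 members lie above 1 in enterocyte-like cells.

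Genes known to act upstream of the Reg3 lectins were tested in the same fits. Of 18 genes of the interleukin 22 receptor and STAT3 pathway, 0 passed over all cells in edgeR without the block, where 0% of 15890 genes did. Of the 18, 3 had an unadjusted p under 0.05, beside 10.1% of all genes. The median log2 fold change of the 18 was 0.11 against -0.0032 over all genes. In enterocyte-like cells 0 of 17 passed without the block, where 0.0722% of all genes did. With the block Il10rb (0.41), Il11ra1 and Jak2 (0.58) rose, beside 9.07% of all genes. Among 16 epithelial genes known to be induced by interleukin 22, 0 passed over all cells, where 0% of all genes did. Of the 16, 7 had an unadjusted p under 0.05 (median 0.48), beside 10.1% of all genes. With the block Duoxa2, Muc13, Nos2 and S100a14 rose, beside 4.47%. Muc13, a membrane mucin, had a log2 fold change of 0.61 ± 0.18 in enterocyte-like cells (edgeR adjusted p = 0.168, and 0.00715 with the block).

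Of 18 genes of the MyD88 and NF-kB list, 1 rose in Paneth-like cells without the block, beside 0.217% of 11977 genes. This was Il18, the gene of an epithelial cytokine. It went from 2.73 and 3.68 CPM to 11.995 and 9.79 CPM, a log2 fold change of 1.79 ± 0.20 (edgeR adjusted p = 0.0208), and the list's median there was 0.08. Enterocyte markers in these cells were also higher with EIPA, and their part was not tested. Without the cells of highest doublet score, 0.0177% of genes passed in this class. Over all cells 0 of 19 genes passed without the block, where 0% of all genes did. Of the 19, 4 had an unadjusted p under 0.05, beside 10.1% of all genes. With the block Il18 rose (1.64, edgeR adjusted p = 0.0110), beside 4.47% of all genes. Of 11 other secreted lectins and lectin-like antimicrobial genes in goblet-like cells, 0 passed without the block, where 0% of 11464 genes did. Of the 11, 3 had an unadjusted p under 0.05, beside 7.01% of all genes, and the median was 0.50. With the block 5 rose, beside 2.46% of all genes, namely Ang4, Itln1, Lgals3, Lyz1 and Zg16. Ang4, Itln1 and Lyz1 were also among the leading genes of the Paneth-like clusters 4 and 14, and Paneth markers in the goblet-like cells were 1.56-fold and 2.17-fold higher with EIPA, whose part was not tested. Lgals3, which encodes galectin-3, had a log2 fold change of 1.86 ± 0.21 in these cells (adjusted p = 0.0705 without the block). The proposed Reg receptor genes Extl3 and Egfr did not pass in any of the 6 fits, with or without the block.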

How the data were processed

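The authors sequenced 10x Genomics 3' single-cell libraries and deposited Cell Ranger 6.1.2 matrices of UMI counts per gene and barcode on mm10 (GRCm38), raw and not normalized. No other file of counts was used. The gene targeted by the CRISPR guide is not reported here. From these counts, barcodes with 1000 genes or more were kept where mitochondrial UMIs made up under 20% (57.0% to 84.4% of barcodes), and libraries shared 33 to 78 barcodes a pair. Cells were embedded with numpy 2.4.6 (Pearson residuals, 3000 variable genes without the Reg genes and listed genes, 45 principal components, 20 neighbours). They were clustered on shared neighbours with igraph 0.11.9 (Leiden, resolution 0.8). Scrublet in scanpy 1.11.5 marked the 10% of cells of highest score in each library. The same share was used everywhere because its automatic threshold marked no cell in WT -EIPA replicate 1, and marked cells were kept unless stated. UMIs summed per library and class were tested with edgeR 4.0.16 (filterByExpr, TMM, quasi-likelihood), with DESeq2 1.42.0 as an alternative. The edgeR step was tested on simulated data.

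The labels give the WT libraries only a replicate number, 1 or 2. The study's source data number its -EIPA and +EIPA single-cell samples by 2 experiments, and the replicate numbers were taken to be these, which the labels do not state. Libraries of the same number deviated together from their group means (r = 0.690 over 15890 genes in all cells, 0.197 to 0.523 in the classes), so values with this block are given where they change a call, and they rest on that reading. No label ties the libraries to separate mice, so p-values measure the spread between these libraries, which may be technical. With the block few degrees of freedom are left, so those p-values lean on the variance that edgeR shares between genes. Shares of cells with a UMI were taken after thinning each cell to 2000 UMIs, and intervals are exact at 95%. Sequences and start sites are from RefSeq and gene positions from GENCODE on GRCm38.p6.

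The members, gene lists and tests were chosen with earlier results of these data known. The text names all 5 members, Reg2, Reg3d, listed genes past the threshold and up to 3 more of the largest change at 10 CPM or more, and for each member the 5 genes of highest Pearson r over cluster sums. Ctrb1 and the cells richest in a member were singled out after their values were seen.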

Additional observations from a re-analysis of the deposited data

Results flagged for a closer look

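Of 50 tests of a member between 10 pairs of classes, 5 found that the EIPA change differed (edgeR interaction, WT libraries, 2 a group). The log2 fold change of Reg4 was higher in goblet-like than in enterocyte-like cells by 1.17 (adjusted p = 1.32e-05), higher in goblet-like than in Paneth-like cells by 1.08 (adjusted p = 0.000931) and higher in tuft-like than in Paneth-like cells by 0.96 (adjusted p = 0.0110). Paneth markers were also higher with EIPA in the goblet-like and tuft-like cells, and their part was not tested. For Reg3b the change in goblet-like cells exceeded that in enterocyte-like cells by 1.80 (adjusted p = 0.0116) and that in Paneth-like cells by 3.14 (adjusted p = 9.03e-05). Reg3b in Paneth-like cells of WT -EIPA replicate 1 rested on 1 cell with 161 of 176 UMIs, and both Reg3b differences and the tuft-like Reg4 difference (0.81, adjusted p = 0.591) were lost without the richest cell of each library. In that setting a Reg3a difference came to pass, beside 4.89% of genes. Its change in Paneth-like cells exceeded that in enterocyte-like cells by 0.50 (edgeR adjusted p = 0.0458), against 0.40 (0.0988) with all cells.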

How the results depend on the processing

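Of 395 recomputed EIPA log2 fold changes, 323 kept their direction and side of the threshold, 49 came to pass it, 3 no longer passed and 20 changed sign. The number of members called, 0 over all cells and in enterocyte-like, goblet-like, EEC-like and tuft-like cells and 1 in Paneth-like cells, was 4, 3, 4, 3, 1 and 3 with the replicate block. In the same order, 5.28%, 13.9%, 3.08%, 1.48%, 0.69% and 2.77% of genes passed with the block. With DESeq2 the number was 2 over all cells, 2 in enterocyte-like, 1 in goblet-like and 1 in tuft-like cells. Beside these, 3.94%, 4.42%, 0.456% and 0.0384% of genes passed. With no filter on low counts the number was 2, 3, 4 and 1 in these and 3 in Paneth-like cells, where Reg3b was called lower. There 0.866%, 6.59%, 1.71%, 0.403% and 1.33% of genes passed. In Paneth-like cells the number was 0 with doublets removed (0.0177% of genes) and 0 with classes set by marker UMIs (0.114%). In tuft-like cells it was 1 with stricter cell limits (0.0319% of genes), 1 at Leiden resolution 1.2 (0.0205%) and 2 with marker UMI classes (0.218%). Leaving out 1 WT library gave 0 to 1 calls over all cells (0% to 0.83% of genes), in enterocyte-like (0.00774% to 3.93%) and in tuft-like cells (0.0208% to 0.798%), 0 to 2 in Paneth-like (0% to 0.81%) and EEC-like (0.00794% to 0.287%) and 0 to 3 in goblet-like cells (0% to 0.553%). Reg3a came to pass over all cells and in enterocyte-like cells without WT -EIPA replicate 1, and Reg3a, Reg3b and Reg4 in goblet-like cells without WT +EIPA replicate 1.

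Log2 fold changes changed sign as follows, where a range covers the 4 fits that leave out 1 WT library, which assume that the lone library of a group varies like the other group. Reg3g was -0.044 to 0.51 and, with marker UMI classes, -0.016 in enterocyte-like cells, 0.059 in Paneth-like and -0.16 in goblet-like cells with marker UMI classes, -0.47 to 0.32 in EEC-like cells (0.14 with Harmony, 0.51 with marker UMI classes) and -0.49 to 0.15 in tuft-like cells (0.38 with Harmony). Reg4 in enterocyte-like cells was -0.14 without WT +EIPA replicate 2 and up to 0.80 otherwise. Reg3b in Paneth-like cells was -1.55 to 0.65, 1.05 with doublets removed, 1.30 with marker UMI classes and 0.80 without the richest cells, an alternative added after seeing the data, and in EEC-like cells it was -0.59 to 1.13. Reg1 in tuft-like cells was -0.94 with Harmony and -0.72 at resolution 1.2. Apart from the lone cell in Paneth-like cells, the cause was not tested.

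Among enterocyte-like, Paneth-like, goblet-like, EEC-like and tuft-like cells, the class with the highest mean level of each member was the same for all 5 under each other setting except marker UMI classes, where Reg4 was highest in EEC-like cells. With Dox, 4 members were at least 2-fold higher over all cells under each setting (1.57% to 1.83% of genes). In enterocyte-like cells 4 were with Harmony (1.8% of genes), marker UMI classes (1.42%) and without the richest cells (1.51%). There 3 were with stricter cell limits (1.39%), doublets removed (1.49%) and resolution 1.2 (1.21%). Folds without the richest cell of each member were added after seeing the data. Without the UMIs of the richest cell, also added after seeing the data, Reg3b was higher in regenerative-like than in enterocyte-like cells in 3 libraries in place of 5. Without thinning, the mean share of enterocyte-like cells with a UMI was 71.5% in place of 47.5% for Reg3a. Over sums per class in place of clusters, 0 of the 5 genes nearest to Reg4 and 2 to 4 of those nearest to each other member stayed among the nearest 5. With 2 libraries a group, and 1 in the CRISPR line, these data limit what can be called.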
